A study of Homo sapiens with 14 samples.

Results

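Edit clusters in coding sequence (CDS) were the short stretches of transcript in which C-to-U edits were concentrated and which lay inside the protein-coding part of an mRNA. A cluster was taken when its midpoint fell in CDS of a protein-coding Gencode 44 transcript on the same strand of hg38 and in no 3′UTR or 5′UTR on that strand. Of 208672 clusters in 14 libraries, 49004 (23.5%) met this rule, and 72782 (34.9%) lay in 3′UTRs. Of the CDS clusters, 28.2 to 32.4% per library also touched a UTR of some other transcript, decay transcripts included. The clusters came from INSCRIBE, in which APOBEC1, a cytidine deaminase, is fused to a nanobody against rabbit IgG (APO1-Nb) and brought to an RNA-binding protein in fixed cells by a rabbit antibody, so that Cs in nearby RNA become U. All libraries were made from methanol-fixed HEK293T cells, an immortalized human embryonic kidney line that the labels also write as HEK293XT. RBFOX2 libraries received anti-RBFOX2 and APO1-Nb, Enzyme-only libraries APO1-Nb without antibody, and Buffer-only libraries neither. Each of these was made from 1 ng and from 100 pg of total RNA, with 3 RBFOX2, 1 Enzyme-only and 3 Buffer-only libraries per input. The methods of the study draw either amount from the RNA of each sample, so libraries of both inputs may share slides. Agreement between inputs is therefore not taken as independent replication. The replicates were separate slides of the same line, so a p-value measures only the spread between slides. The libraries held 23442 to 24715 clusters in RBFOX2, 22370 in Enzyme-only and 9982 to 11028 in Buffer-only at 1 ng; from 100 pg they held 13160 to 13614, 12837 and 8864 to 9912. With 3 libraries against 3, the exact two-sided permutation test cannot go below p = 0.1, and the lone Enzyme-only library enters no test.

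RBFOX2 is a splicing regulator of the RBFOX family that binds UGCAUG and, more weakly, GCACG, and it is best known for binding in introns next to alternative exons and in 3′UTRs. APOBEC1 deaminates C in single-stranded RNA and prefers a C that follows A or U. In coding sequence an edit also changes a codon: it can leave the amino acid as it is, replace it, or turn CAA, CAG or CGA into a stop codon.

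The windows below are hg38 sequence around UGCAUG at CDS loci that had a cluster in all 3 RBFOX2 libraries of an input and in no Enzyme-only or Buffer-only library of that input. They are shown because they hold the motif and an edited C close together. Each is written 5′ to 3′ on the strand of the gene, with the motif (TGCATG in genome letters) in capitals. The nearest edited C is base 12 of the ATP1B3 window, 13 of CWC22, 12 of CLTC, 21 of DGCR8, 21 of SF3B6, 9 of PLS3 and 9 of CAPZA1, counted from 1 at the 5′ end.
ATP1B3, 1 ng, chr3:141922047-141922076, plus strand: atgggaaaaaacTGCATGtaagtattgaga
CWC22, 1 ng, chr2:179970813-179970842, minus strand: cttcgaaacattcTGCATGagtctgaaatt
CLTC, 1 ng, chr17:59685724-59685753, plus strand: cgtcctagaaacTGCATGgaggcacaatat
DGCR8, 1 ng, chr22:20086430-20086459, plus strand: gtggggacgTGCATGcttgtccctttggcg
SF3B6, 100 pg, chr2:24068374-24068403, minus strand: atgccaagaaTGCATGtgatcacctatcgg
PLS3, 100 pg, chrX:115649510-115649539, plus strand: ggtcatgactgtgttTGCATGtttgatggg
CAPZA1, 100 pg, chr1:112659045-112659074, plus strand: gcaacagactattatTGCATGtattgaaag
In ATP1B3, CWC22 and CLTC the edited C directly precedes the motif, and in PLS3 and CAPZA1 it lies 7 nt before its first base. This C was chosen as the nearest to the motif, whatever its reads, so its closeness is not a result. Over the RBFOX2 libraries of the input it was edited in 8 reads in ATP1B3, 2 in CWC22, 1 in CLTC and 1 in DGCR8. In SF3B6 it was edited in 7 reads, in PLS3 in 18 and in CAPZA1 in 3. In 6 of these 7 windows the motif lies within an exon. In ATP1B3 it spans the end of exon 6. UGCAUG within 50 nt of a cluster was not rare in itself: 3.53% of all 24991 CDS loci at 1 ng and 3.23% of all 17714 at 100 pg had it.

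CDS clusters were more numerous in RBFOX2 than in Buffer-only libraries, and the Enzyme-only library had as many as RBFOX2. At 1 ng, 5207, 5222 and 5081 CDS clusters were called in the RBFOX2 libraries, 5130 in the Enzyme-only library and 2797, 2934 and 2886 in the Buffer-only libraries. The RBFOX2 libraries were all above the Buffer-only libraries, and the Enzyme-only library lay inside the RBFOX2 range. The RBFOX2 mean of 5170 ± 77.4 was 1.80 times the Buffer-only mean of 2872 ± 69.5 (SD, n = 3 each; exact permutation p = 0.1). From 100 pg, the counts were 3166, 3124 and 3178 in RBFOX2, 3174 in Enzyme-only and 2467, 2384 and 2254 in Buffer-only. Again the groups did not overlap, with means of 3156 ± 28.4 in RBFOX2 and 2368 ± 107 in Buffer-only, a ratio of 1.33 (SD, n = 3 each; exact permutation p = 0.1), and Enzyme-only stood with RBFOX2.

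In 3′UTRs, RBFOX2 and Enzyme-only did not stand level in this way. RBFOX2 libraries held 1.01 times the CDS clusters of the Enzyme-only library at 1 ng (lowest and highest library 0.99 and 1.02) and 0.994 times at 100 pg (0.984 and 1.00). For 3′UTR clusters the same ratios were 1.30 (1.26 and 1.32) at 1 ng and 1.21 (1.20 and 1.21) at 100 pg. Intron clusters were 0.927 and 0.985 times, and 5′UTR clusters 0.928 and 0.914 times, those of Enzyme-only at 1 ng and at 100 pg. Each ratio rests on 1 Enzyme-only library, so the difference between regions was not tested.

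CDS made up a smaller share of the clusters in RBFOX2 than in Buffer-only. Among clusters in mRNA exons (CDS, 3′UTR and 5′UTR), CDS took 32.9%, 32.0% and 31.3% in the RBFOX2 libraries at 1 ng, 37.1% in Enzyme-only (Wilson 95% interval 36.3 to 37.9%) and 42.7%, 42.1% and 42.2% in Buffer-only. With 100 pg it took 38.1%, 37.7% and 38.4% in RBFOX2, 41.8% (40.7 to 42.9%) in Enzyme-only and 45.2%, 44.1% and 45.2% in Buffer-only. The 3 RBFOX2 libraries were below the 3 Buffer-only libraries in each input (exact permutation p = 0.1), with Enzyme-only between them. Of all clusters, introns included, CDS took 22.2%, 21.1% and 20.7% in RBFOX2, 22.9% in Enzyme-only and 28.0%, 26.7% and 26.2% in Buffer-only from 1 ng. From 100 pg it took 24.1%, 22.9% and 23.4% in RBFOX2, 24.7% in Enzyme-only and 24.9%, 24.8% and 25.4% in Buffer-only (exact permutation p = 0.1 in each input). In the smaller input the difference from Buffer-only turned round among clusters with a FLARE score of at least 0.99, where CDS took 23.5% in RBFOX2 and 21.8% in Buffer-only. Wilson intervals here and below cover counting error only, since reads without molecular identifiers are not independent molecules.

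**Figure D1:**
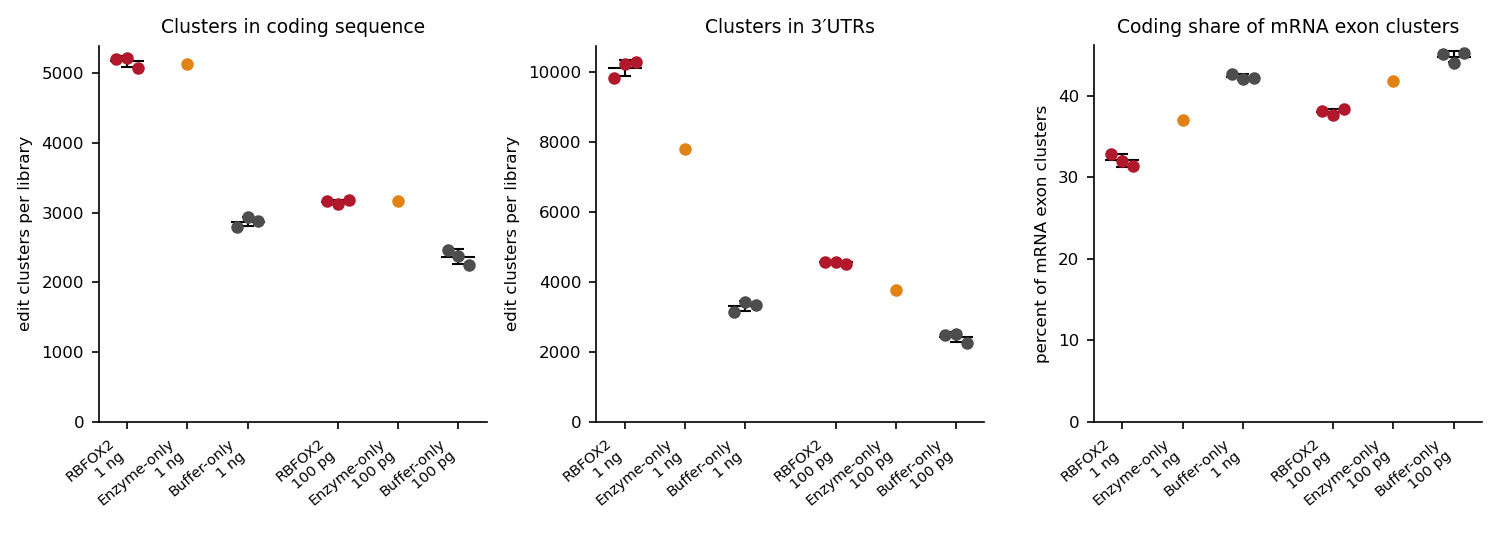
Edit clusters per library in CDS and in 3′UTRs, and CDS clusters as a percent of clusters in mRNA exons, at each input, in the order RBFOX2, Enzyme-only, Buffer-only. Points are libraries, bars the mean and SD of 3. RBFOX2 and Enzyme-only stand level in CDS (5170 and 5130 at 1 ng) and apart in 3′UTRs (10115 and 7797).

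Because FLARE calls clusters only on the strand of an annotated gene, the background on the other strand was read from the deposited edit sites. At 1 ng, the RBFOX2 libraries had 6443, 6436 and 6374 edit sites in CDS on the gene strand, Enzyme-only 6011, and Buffer-only 2906, 3044 and 3001. On the opposite strand of the same CDS, RBFOX2 libraries had 2929, 2901 and 3037 sites, Enzyme-only 3001, and Buffer-only 2863, 2905 and 2889. The gene strand thus carried 2.15 times as many sites in RBFOX2 as in Buffer-only without overlap (exact permutation p = 0.1), while the opposite-strand counts overlapped and differed by a factor of 1.02 (exact permutation p = 0.2).

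In Buffer-only libraries the gene strand held 50.4%, 51.2% and 51.0% of these sites, close to an even split. It held 68.7%, 68.9% and 67.7% in the RBFOX2 libraries and 66.7% (65.7 to 67.7%) in Enzyme-only. From 100 pg the gene strand held 60.7%, 60.2% and 60.4% in RBFOX2, 58.8% (57.5 to 60.0%) in Enzyme-only and 49.9%, 48.4% and 49.3% in Buffer-only. The opposite-strand counts at 100 pg were again alike, between 2555 and 2568 in RBFOX2, 2514 in Enzyme-only and between 2394 and 2626 in Buffer-only (exact permutation p = 0.9). The libraries of both inputs were made with a NEBNext Single Cell/Low Input kit. Whether its reads keep the strand is not given in the sources used here.

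**Figure D2:**
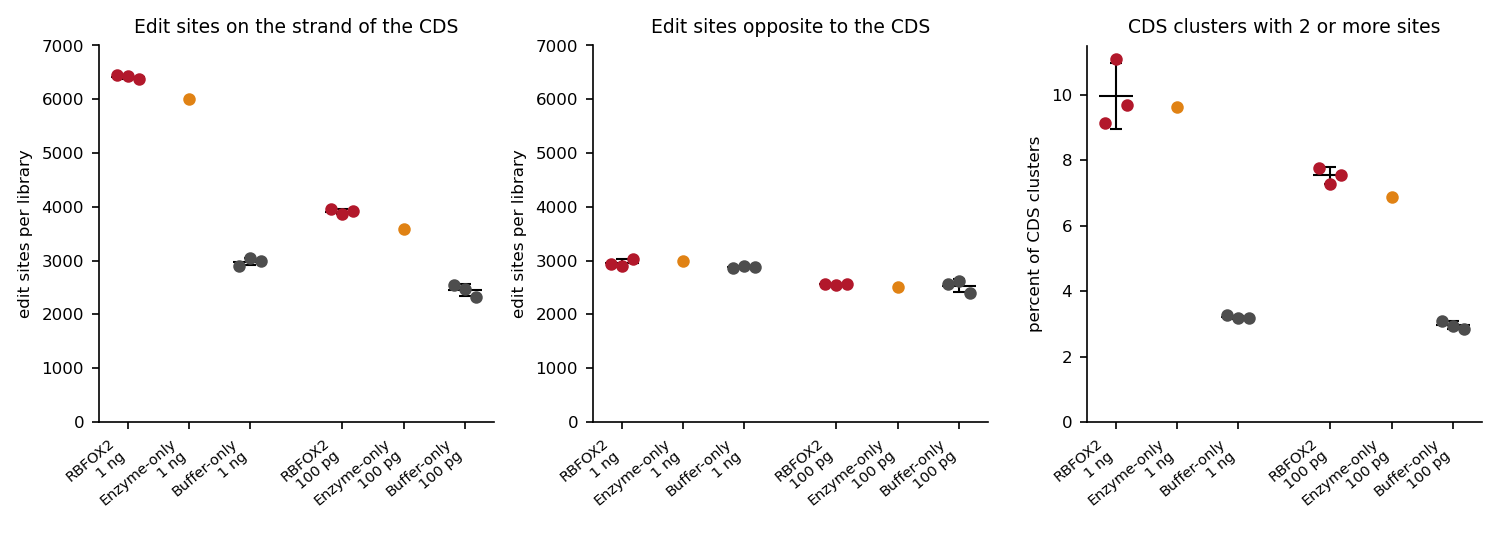
Edit sites in CDS on the gene strand and on the opposite strand, and the percent of CDS clusters with 2 or more edit sites, per library. Points are libraries, bars the mean and SD of 3. Gene-strand sites separate RBFOX2 (6374 to 6443 at 1 ng) from Buffer-only (2906 to 3044), and opposite-strand sites do not.

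Most CDS clusters were a lone edit site. Clusters with 2 or more sites made up 9.12%, 11.1% and 9.68% of CDS clusters in RBFOX2 at 1 ng, 9.61% in Enzyme-only and 3.25%, 3.17% and 3.19% in Buffer-only. From 100 pg they made up 7.77%, 7.27% and 7.55% in RBFOX2, 6.87% in Enzyme-only and 3.08%, 2.94% and 2.84% in Buffer-only. RBFOX2 exceeded Buffer-only without overlap in each input (exact permutation p = 0.1). The clusters had a median edit fraction of 0.549%, 0.532% and 0.571% in RBFOX2, 0.490% in Enzyme-only and 0.412%, 0.394% and 0.413% in Buffer-only from 1 ng. The medians from 100 pg were 0.596%, 0.637% and 0.606% in RBFOX2, 0.529% in Enzyme-only and 0.401%, 0.402% and 0.431% in Buffer-only. RBFOX2 libraries were the highest of the 7 in each input (exact permutation p = 0.1 against Buffer-only).

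Few reads stood behind each edit. The median of the deposited mean depth was 60.3, 61.3 and 60.7 reads in RBFOX2 at 1 ng, 67.2 in Enzyme-only and 62.9, 66.1 and 65.7 in Buffer-only. RBFOX2 was thus lower by 4.17 reads without overlap (exact permutation p = 0.1), whereas among clusters with a FLARE score of at least 0.99 it was higher by 14.3 reads. At 100 pg the median depth was 82.3, 76.0 and 80.5 reads in RBFOX2, 83.8 in Enzyme-only and 77.3, 75.5 and 67.6 in Buffer-only, with overlap (exact permutation p = 0.2). The read coverage listed at the edit sites themselves was lower than the deposited depth, with medians of 29.5 to 30 reads in RBFOX2, 32 in Enzyme-only and 31 to 32 in Buffer-only at 1 ng. Sites with 1 edited read made up 52.5%, 55.2% and 51.0% of sites in RBFOX2 clusters, 54.7% in Enzyme-only and 67.0%, 65.7% and 63.8% in Buffer-only. Single-read sites were thus the majority in every library at 1 ng. From 100 pg they made up 33.3 to 35.4% in RBFOX2, 40.9% in Enzyme-only and 59.1 to 62.2% in Buffer-only.

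The coding stretches with clusters also differed in composition. CDS clusters had a mean GC content of 47.2%, 46.4% and 46.5% in RBFOX2, 48.1% in Enzyme-only and 52.5%, 51.9% and 51.9% in Buffer-only from 1 ng. From 100 pg it was 49.0%, 48.3% and 48.5% in RBFOX2, 50.3% in Enzyme-only and 53.3%, 52.9% and 52.6% in Buffer-only. The exons that held them had a median length of 166, 161 and 164 nt in RBFOX2, 171 nt in Enzyme-only and 179, 175 and 177 nt in Buffer-only at 1 ng. Neither measure overlapped between RBFOX2 and Buffer-only in either input (exact permutation p = 0.1 each). Mean cluster length at 1 ng was 43.9 nt in RBFOX2, 44.2 nt in Enzyme-only and 43.7 nt in Buffer-only (exact permutation p = 0.6).

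UGCAUG was more frequent at RBFOX2 clusters in CDS than at Buffer-only clusters. At 1 ng, 3.90%, 3.93% and 4.37% of CDS clusters in the RBFOX2 libraries had UGCAUG on the same strand within 50 nt, against 3.65% (3.17 to 4.19%) in Enzyme-only and 2.61%, 3.37% and 2.32% in Buffer-only. From 100 pg the shares were 4.07%, 3.65% and 3.78% in RBFOX2, 2.80% (2.28 to 3.44%) in Enzyme-only and 2.76%, 2.43% and 2.80% in Buffer-only. RBFOX2 was higher than Buffer-only without overlap, by 1.30 percentage points at 1 ng and 1.17 at 100 pg (exact permutation p = 0.1 each). The interval of Enzyme-only took in 2 of the 3 RBFOX2 values at 1 ng and lay below all 3 of them at 100 pg.

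UGCAUG was more frequent still at the 3′UTR clusters of the same RBFOX2 libraries. It lay within 50 nt of 8.03%, 7.89% and 8.28% of 3′UTR clusters in RBFOX2, 4.71% (4.26 to 5.20%) in Enzyme-only and 3.91%, 4.42% and 4.68% in Buffer-only from 1 ng. For 100 pg these shares were 7.02%, 7.18% and 6.69% in RBFOX2, 4.76% (4.13 to 5.49%) in Enzyme-only and 4.0%, 5.11% and 3.97% in Buffer-only. In CDS the values of RBFOX2 and Enzyme-only lay closer together. The share in CDS minus that in 3′UTRs of the same library was −4.13, −3.96 and −3.91 points in RBFOX2, −1.06 in Enzyme-only and −1.30, −1.04 and −2.36 in Buffer-only from 1 ng. From 100 pg it was −2.95, −3.53 and −2.92 points in RBFOX2, −1.96 in Enzyme-only and −1.24, −2.68 and −1.18 in Buffer-only. This gap was wider in RBFOX2 than in Buffer-only without overlap in each input (exact permutation p = 0.1).

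Near the midpoint of CDS clusters, RBFOX2 was highest. At 1 ng, the nearest UGCAUG lay within 25 nt of the midpoint of 1.55% of CDS clusters in RBFOX2 (lowest 1.36%, highest 1.85%), 1.13% in Enzyme-only and 0.890% in Buffer-only (0.644 to 1.16%). At 100 pg these shares were 1.65% in RBFOX2 (1.51 to 1.79%), 1.07% in Enzyme-only and 0.986% in Buffer-only (0.892 to 1.09%). From 25 to 50 nt away they were 1.56%, 1.48% and 1.08% in the same order at 1 ng, without overlap (exact permutation p = 0.1). At 100 pg they were 1.28%, 0.882% and 1.06%, with overlap (exact permutation p = 0.5). From 50 to 75 nt away the shares were 1.21% in RBFOX2, 1.21% in Enzyme-only and 1.16% in Buffer-only at 1 ng, with overlap (exact permutation p = 0.8). At 100 pg they were 1.14%, 0.977% and 0.901%, with overlap (exact permutation p = 0.2). The RBFOX2 mean at 100 pg was above the Buffer-only mean at each distance out to 500 nt. Farther out, between 300 and 400 nt, RBFOX2 was again higher without overlap at 1 ng, with 4.61% against 3.83% in Buffer-only (exact permutation p = 0.1), and the groups overlapped at 100 pg (4.71% and 4.16%, exact permutation p = 0.3). The motif lay inside the cluster itself in 1.23%, 1.34% and 1.496% of clusters in RBFOX2 from 1 ng, 0.897% (0.673 to 1.19%) in Enzyme-only and 0.501%, 0.920% and 0.658% in Buffer-only. From 100 pg it did so in 1.26%, 1.34% and 1.13% in RBFOX2, 0.725% (0.483 to 1.09%) in Enzyme-only and 0.527%, 0.713% and 0.843% in Buffer-only.

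**Figure D3:**
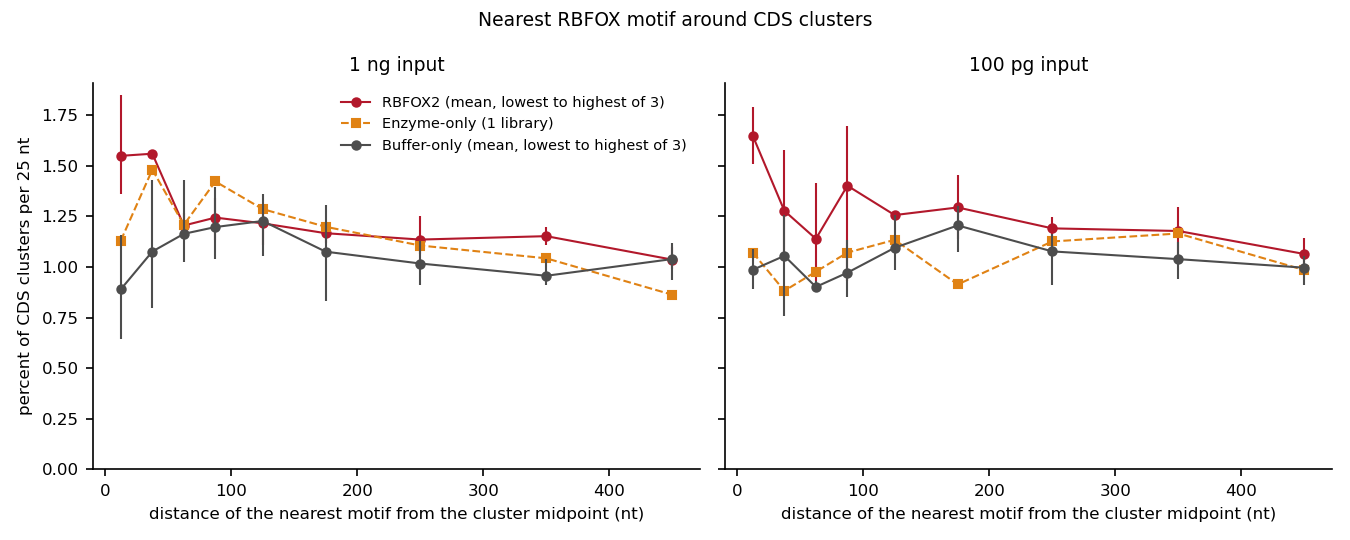
Distance from the midpoint of a CDS cluster to the nearest RBFOX motif on the same strand, as the percent of CDS clusters per 25 nt of distance. Points are the mean of 3 RBFOX2 or 3 Buffer-only libraries with bars from the lowest to the highest library, and the value of the 1 Enzyme-only library. RBFOX2 stands above Buffer-only in the bin nearest to the midpoint (1.55% and 0.890% at 1 ng). Between 50 and 200 nt its mean lies within the Buffer-only range at 1 ng. At 100 pg its mean from 50 to 75 nt lies above the highest Buffer-only library (1.14% and 0.932%).

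By place, the difference was seen for motifs in coding exons. Counting motifs within 75 nt of the midpoint, 3.37 ± 0.18% of CDS clusters in RBFOX2 had UGCAUG in a coding exon, against 2.79% in Enzyme-only and 2.26 ± 0.38% in Buffer-only from 1 ng (SD, n = 3 for RBFOX2 and Buffer-only; exact permutation p = 0.1). From 100 pg the shares were 3.08 ± 0.065% in RBFOX2, 2.24% in Enzyme-only and 2.29 ± 0.26% in Buffer-only (exact permutation p = 0.1). Motifs in the neighbouring intron lay near 0.639% of RBFOX2, 0.838% of Enzyme-only and 0.614% of Buffer-only clusters at 1 ng, with overlap (exact permutation p = 0.8), and near 0.697%, 0.504% and 0.417% in the same order at 100 pg (exact permutation p = 0.2). Exon and intron motifs were not tested against each other.

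Among clusters with 2 or more edit sites the motif was more frequent in RBFOX2. At 1 ng, 6.71 to 7.77% of these clusters in the RBFOX2 libraries were near UGCAUG, against 3.04% in Enzyme-only and 1.09% on average in Buffer-only (exact permutation p = 0.1 for RBFOX2 against Buffer-only). The Buffer-only shares rest on 91 to 93 such clusters per library, so on 1 cluster with the motif each, and the RBFOX2 shares on 475 to 579. In 100 pg libraries the shares were 3.96 to 7.92% in RBFOX2, 3.67% in Enzyme-only and 0 to 6.25% in Buffer-only, and they overlapped (exact permutation p = 0.3), with 227 to 246 clusters in RBFOX2 and 64 to 76 in Buffer-only.

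GCACG, the weaker motif named above, went the other way. It lay within 50 nt of 4.76%, 4.21% and 4.76% of CDS clusters in RBFOX2, 4.56% in Enzyme-only and 5.97%, 5.49% and 6.03% in Buffer-only from 1 ng. From 100 pg it was near 5.34%, 4.77% and 4.5% in RBFOX2, 5.45% in Enzyme-only and 6.57%, 6.0% and 6.21% in Buffer-only (exact permutation p = 0.1 in each input). GC content moved with the same groups, so both motifs were counted again among clusters of 40 to 55% GC. There GCACG was near 3.09% of RBFOX2, 2.82% of Enzyme-only and 3.12% of Buffer-only clusters at 1 ng (exact permutation p = 1). From 100 pg it was near 2.86% of RBFOX2, 3.23% of Enzyme-only and 3.40% of Buffer-only clusters (exact permutation p = 0.2). The UGCAUG difference from Buffer-only stayed in these clusters, with 4.22 to 4.87% in RBFOX2 and 2.85 to 3.40% in Buffer-only at 1 ng. Enzyme-only, at 4.54%, lay inside the RBFOX2 range there. At 100 pg the shares were 3.79 to 4.18% in RBFOX2, 3.10% in Enzyme-only and 2.64 to 3.57% in Buffer-only (exact permutation p = 0.1 for RBFOX2 against Buffer-only in each input).

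The bases around edited Cs in CDS carried the preference of APOBEC1 in libraries that received it. At 1 ng, A or U preceded 69.9%, 72.2% and 71.2% of the edited Cs in RBFOX2 clusters, 67.5% (66.3 to 68.7%) in Enzyme-only and 41.8%, 45.1% and 42.8% in Buffer-only. In the 100 pg libraries it preceded 63.7%, 65.2% and 63.4% in RBFOX2, 58.1% (56.4 to 59.7%) in Enzyme-only and 42.8%, 41.5% and 43.7% in Buffer-only. RBFOX2 and Buffer-only did not overlap in either input (exact permutation p = 0.1). Of all Cs inside the same clusters, A or U preceded 50.4 ± 0.56% in RBFOX2, 49.0% in Enzyme-only and 43.0 ± 0.33% in Buffer-only at 1 ng (SD, n = 3 for RBFOX2 and Buffer-only). Edited Cs were thus 1.41 times as often preceded by A or U as all Cs in RBFOX2, 1.38 times in Enzyme-only and 1.00 times in Buffer-only.

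The place of the edit in the codon overlapped between groups. Codon position 3 held 35.4%, 35.6% and 36.1% of edited Cs in RBFOX2 at 1 ng, 36.1% in Enzyme-only and 37.0%, 36.6% and 34.2% in Buffer-only, with overlap (exact permutation p = 0.9). Synonymous changes made up 41.0 ± 0.36% in RBFOX2, 41.4% (40.1 to 42.7%) in Enzyme-only and 40.3 ± 1.6% in Buffer-only (SD, n = 3 for RBFOX2 and Buffer-only; exact permutation p = 0.8). Clusters were spread along the CDS, with a median relative position, from 0 at the start codon to 1 at the stop codon, of 0.530 in RBFOX2, 0.511 in Enzyme-only and 0.532 in Buffer-only (exact permutation p = 0.7). The medians from 100 pg were 0.519 in RBFOX2, 0.544 in Enzyme-only and 0.524 in Buffer-only (exact permutation p = 0.9). Clusters at a relative position of 0.75 or more made up 28.9% in RBFOX2, 28.4% in Enzyme-only and 30.2% in Buffer-only at 1 ng. Here RBFOX2 was lower than Buffer-only without overlap (exact permutation p = 0.1). At 100 pg these shares were 28.4%, 29.7% and 28.6% in the same order, with overlap (exact permutation p = 0.8). Missense changes were slightly rarer in RBFOX2 than in Buffer-only, 50.7 ± 0.40% against 52.4 ± 1.4% from 1 ng and 50.2 ± 0.95% against 51.8 ± 0.45% from 100 pg (SD, n = 3 each; exact permutation p = 0.1), with 50.5% and 50.9% in Enzyme-only.

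Edits that would make a stop codon were slightly more frequent in RBFOX2 than in Buffer-only. They were 8.38%, 8.10% and 8.44% of edited Cs in RBFOX2 at 1 ng, 8.12% (7.44 to 8.86%) in Enzyme-only and 6.78%, 7.60% and 7.53% in Buffer-only. At 100 pg they were 8.36%, 8.47% and 8.46% in RBFOX2, 7.59% (6.75 to 8.52%) in Enzyme-only and 7.71%, 6.93% and 7.51% in Buffer-only. The groups did not overlap in either input (exact permutation p = 0.1 each), and the difference was about 1 percentage point. The clusters themselves offered more such Cs: of all Cs, 7.82 ± 0.14% in RBFOX2, 7.65% in Enzyme-only and 7.03 ± 0.17% in Buffer-only would have given a stop codon at 1 ng (SD, n = 3 for RBFOX2 and Buffer-only). Per library at 1 ng, 157 ± 12.4 CAA, 239 ± 12.5 CAG and 83.7 ± 2.5 CGA codons were edited to a stop in RBFOX2, against 150, 230 and 84 in Enzyme-only and 53.7 ± 10.4, 128 ± 15.3 and 34.3 ± 6.7 in Buffer-only (mean ± SD, n = 3 for RBFOX2 and Buffer-only).

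**Figure D4:**
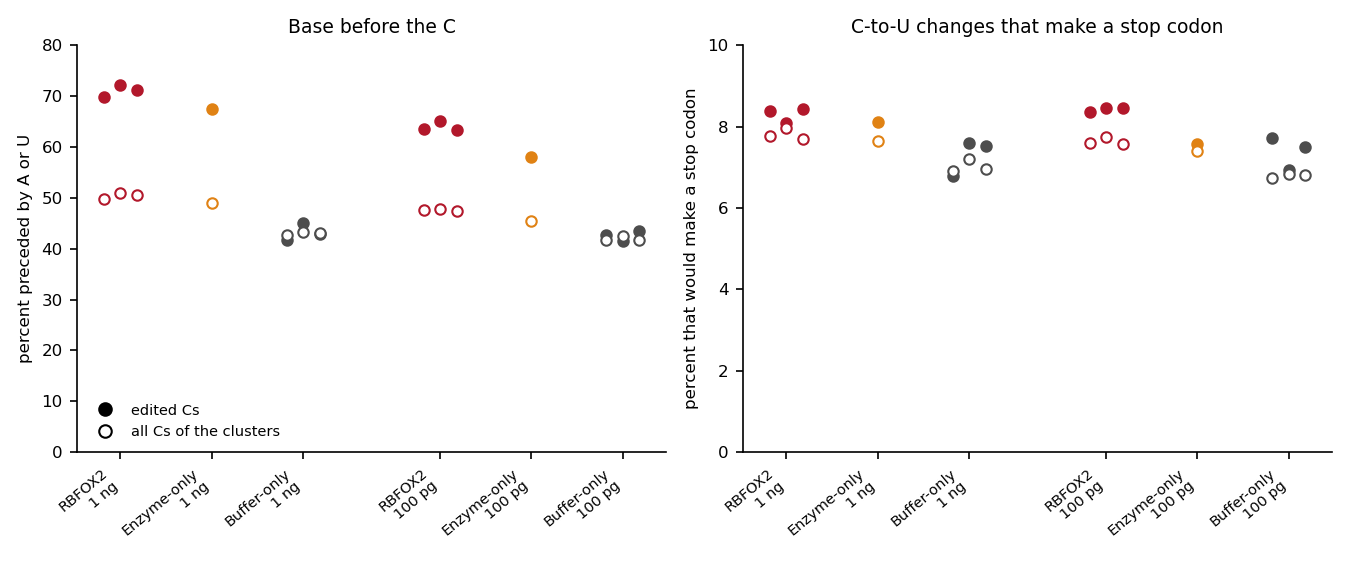
Percent of edited Cs in CDS clusters (filled) and of all Cs in the same clusters (open) that follow A or U, and percent whose change to U would make a stop codon, per library. In RBFOX2 at 1 ng 69.9 to 72.2% of edited Cs follow A or U, and in Buffer-only the edited Cs (41.8 to 45.1%) stand with all Cs.

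Individual CDS clusters were seldom found again in another library. Merging overlapping clusters of an input gave 24991 CDS loci at 1 ng, of which 86.8% had a cluster in 1 of the 7 libraries only, and 17714 at 100 pg, of which 91.0% did. Of the CDS clusters of an RBFOX2 library at 1 ng, 7.51 to 8.13% overlapped a cluster of another RBFOX2 library, 6.80 to 7.54% one of Enzyme-only and 3.20 to 3.74% one of a Buffer-only library. In the smaller input this held for 5.41 to 5.76% in another RBFOX2 library, 4.14 to 4.71% in Enzyme-only and 2.53 to 3.85% in a Buffer-only library. RBFOX2 libraries thus shared nearly as many CDS clusters with Enzyme-only as with each other at 1 ng. Buffer-only libraries held fewer clusters, and the part of this in the lower overlap was not tested.

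CDS loci with a cluster in all 3 RBFOX2 libraries and in no Enzyme-only or Buffer-only library, called recurrent here, numbered 46 at 1 ng (0.184% of CDS loci; 0.447% of loci of all regions met the same rule) and 27 at 100 pg (0.152%, against 0.167% of loci of all regions). At 1 ng the CDS share was below the background of all regions, and at 100 pg near it. Another 716 CDS loci at 1 ng and 277 at 100 pg were found in 2 RBFOX2 libraries and no other, and 11536 and 7676 in 1. The reverse pattern, all 3 Buffer-only libraries and no RBFOX2 library, occurred at 6 loci at 1 ng and 5 at 100 pg. Of the 107 CDS loci found in all 3 RBFOX2 libraries at 1 ng, 47 were also found in Enzyme-only, as were 24 of 58 at 100 pg. With RBFOX2 replicate 1, 2 or 3 left out, 285, 267 and 302 CDS loci met the rule at 1 ng and 111, 120 and 127 at 100 pg. The rule then asked for 2 RBFOX2 libraries in place of 3, so a rise was set in advance. It does not show dependence on any replicate. Leaving out every cluster that touches a UTR of any transcript left 27 and 17 recurrent loci. Of the recurrent loci, 39 of 46 and 24 of 27 overlapped the deposited list of confident RBFOX2 clusters, that is, clusters shared by the 3 RBFOX2 libraries after removal of Buffer-only clusters. The list comes from the same libraries by nearly the same rule, so a high overlap was largely set in advance. By the region of the RBFOX2 clusters they overlap, 75 of the 776 confident clusters at 1 ng lay in CDS (9.66%) and 565 in 3′UTRs (72.8%), and of the 214 at 100 pg 36 lay in CDS (16.8%) and 136 in 3′UTRs (63.6%).

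UGCAUG lay within 50 nt of 7 of the 46 recurrent CDS loci at 1 ng (15.2%, against 3.53% of all CDS loci and 29.5% of recurrent loci outside CDS) and of 3 of the 27 at 100 pg (11.1%, against 3.23% and 23.7%). The length of recurrent loci was not matched to that of the others, and its part in these shares was not tested. The top C of a locus was the one edited in the most RBFOX2 libraries, with ties broken by edited reads. This rule favours Cs that libraries share. The top C was edited in 2 RBFOX2 libraries in 17 of the 46 loci at 1 ng and in all 3 in 6. At 100 pg this was so in 9 and 5 of the 27. The loci held 3 to 18 edited reads over the 3 RBFOX2 libraries at 1 ng (median 7.5) and 3 to 78 at 100 pg (median 23).

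PLS3 was the only recurrent locus of both inputs. PLS3 encodes plastin-3, which bundles actin filaments, and its locus lies in the last exon, exon 16 of 16 (chrX:115649490-115649549 at 1 ng, chrX:115649460-115649594 at 100 pg, plus strand). The C at chrX:115649518, 7 nt before the motif shown above, was edited in 3 of 102, 2 of 116 and 3 of 123 reads of the RBFOX2 libraries at 1 ng. At 100 pg it was edited in 4 of 120, 4 of 87 and 10 of 123 reads. All 6 RBFOX2 libraries therefore carried this edit, a missense change at codon position 2, and no site edit was listed there in an Enzyme-only or Buffer-only library. Libraries of both inputs may share slides, so these 6 may not be independent. The C inside the motif was also edited, in 2 reads at 1 ng.

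The other recurrent loci with UGCAUG at 1 ng were in ATP1B3, CWC22, CLTC, ADNP2, DGCR8 and TMF1. ATP1B3 encodes a beta subunit of the Na+/K+ pump. It had 3, 5 and 3 edited reads in the RBFOX2 libraries, and the C before the motif was edited in 5 of 159 and 3 of 142 reads of replicates 2 and 3. CWC22, a spliceosome protein needed for exon junction complex assembly, had 1, 4 and 1 edited reads, and CLTC, the clathrin heavy chain, 2, 2 and 1. DGCR8, the RNA-binding partner of Drosha in microRNA processing, had 2, 1 and 1 edited reads at this locus of exon 2, and 8, 2 and 4 at a second recurrent locus of the same exon without the motif. ADNP2, a zinc finger homeobox gene, had 3, 1 and 1, with the same C edited in 2 of 29, 1 of 25 and 1 of 31 reads and, at 100 pg, in 10 of 89 reads of RBFOX2 replicate 3. In the libraries of the other input, a Buffer-only cluster overlapped the ATP1B3, CLTC and DGCR8 motif loci, each in 1 library, and RBFOX2 clusters overlapped ATP1B3 in 2 and ADNP2 in 1. Over all recurrent loci of 1 ng, 15 of 46 overlapped an RBFOX2 cluster at 100 pg, 2 an Enzyme-only and 7 a Buffer-only cluster. Of those of 100 pg, 18, 6 and 2 of 27 did so at 1 ng, in the same order. The same share over all CDS loci is not given here, so these counts are a description. The Enzyme-only counts rest on 1 library and the others on 3, so they cannot be compared directly. In TMF1, which encodes a Golgi protein, the motif lay outside the exon, 35 nt from the nearest edited C.

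At 100 pg, SF3B6, a subunit of the SF3b complex that recognizes the branch point, led with 30, 10 and 38 edited reads in exon 3 of 4, at mean depths of 1182, 1532 and 1342 reads. Its edits were spread over 7 Cs, of which the one shown above, 5 nt from the motif, took 7 reads. CAPZA1, which encodes an F-actin capping protein, had 3, 3 and 7 edited reads, and at 1 ng 1 RBFOX2 and 1 Buffer-only library had a cluster there. Its most edited C, at chr1:112659049 in codon position 1, was edited in 7 of 105 reads of RBFOX2 replicate 3 and would make a stop codon. At 1 ng the 1 recurrent locus whose top C would make a stop was in NUDCD1, with 1 of 37 and 2 of 49 reads edited in RBFOX2 replicates 2 and 3.

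The recurrent loci with the most edited reads at 1 ng were mostly without UGCAUG. DESI2, a gene for a deSUMOylating isopeptidase, had 7, 3 and 8 edited reads in RBFOX2 at 1 ng. Its most edited C, at chr1:244691902, was edited in 4 of 240 and 8 of 315 reads of replicates 1 and 3 at 1 ng. At 100 pg, where the locus was not recurrent, the same C was edited in 4 of 280 and 5 of 344 reads of RBFOX2 libraries and in 6 of 183 reads of Enzyme-only. CCT6A, a subunit of the chaperonin that folds actin and tubulin, had 1 C, at chr7:56059586, edited in 4 of 171, 3 of 187 and 5 of 245 reads of the 3 RBFOX2 libraries, a synonymous change. SPC25, part of the Ndc80 kinetochore complex, had a C edited in 3 of 53, 3 of 77 and 1 of 61 reads. IQCB1, a cilium protein, had 8, 2 and 4 edited reads, RANBP2, a nucleoporin, 3, 5 and 4, and SYNCRIP, an hnRNP, 5, 3 and 2. CUL5, a cullin ubiquitin ligase scaffold, had 2 recurrent loci, in exon 5 (5, 1 and 5 edited reads) and exon 6 (2, 2 and 2).

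SMC6, which encodes a subunit of a chromosome maintenance complex, was recurrent at 100 pg and edited in every library at 1 ng. At 100 pg its C at chr2:17716880 was edited in 27 of 43, 13 of 26 and 8 of 12 reads of the RBFOX2 libraries, and no cluster was called there in Enzyme-only or Buffer-only. At 1 ng the same C was edited in all 7 libraries, in 6 of 22, 6 of 22 and 6 of 23 reads of RBFOX2, 3 of 15 of Enzyme-only and 1 of 18, 1 of 20 and 3 of 20 of Buffer-only. Its share of edited reads (59.3% over the RBFOX2 libraries at 100 pg) was far above the median of 4.72% over the top Cs of the 27 loci. NBPF15, at 11 of 23 reads, was the next highest with 47.8%. It belongs to a family of near-identical genes, so its reads cannot be placed with certainty.

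The remaining leading loci at 100 pg differed in depth. CKS2, a regulatory subunit of cyclin-dependent kinases, had 22, 9 and 11 edited reads, with its top C edited in 11 of 723 and 11 of 896 reads. CCT2, another chaperonin subunit, had 8, 21 and 9, and RBM17, a splicing factor, 24, 6 and 7. PHF14 (10, 15 and 11), AP3S1 (24, 1 and 9), a subunit of the AP-3 adaptor, and SRPK1 (4, 14 and 10), a kinase of SR splicing proteins, followed. The top C of PHF14 was edited in 15 of 38 and 3 of 52 reads of replicates 2 and 3. HSPA9, a mitochondrial chaperone, had a C at chr5:138561784 edited in 5 of 80, 4 of 72 and 8 of 110 reads of the 3 RBFOX2 libraries and, at 1 ng, in 3 of 94 reads of Enzyme-only. AP3S1 also had a recurrent locus at 1 ng, in exon 5 instead of exon 3.

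**Figure D5:**
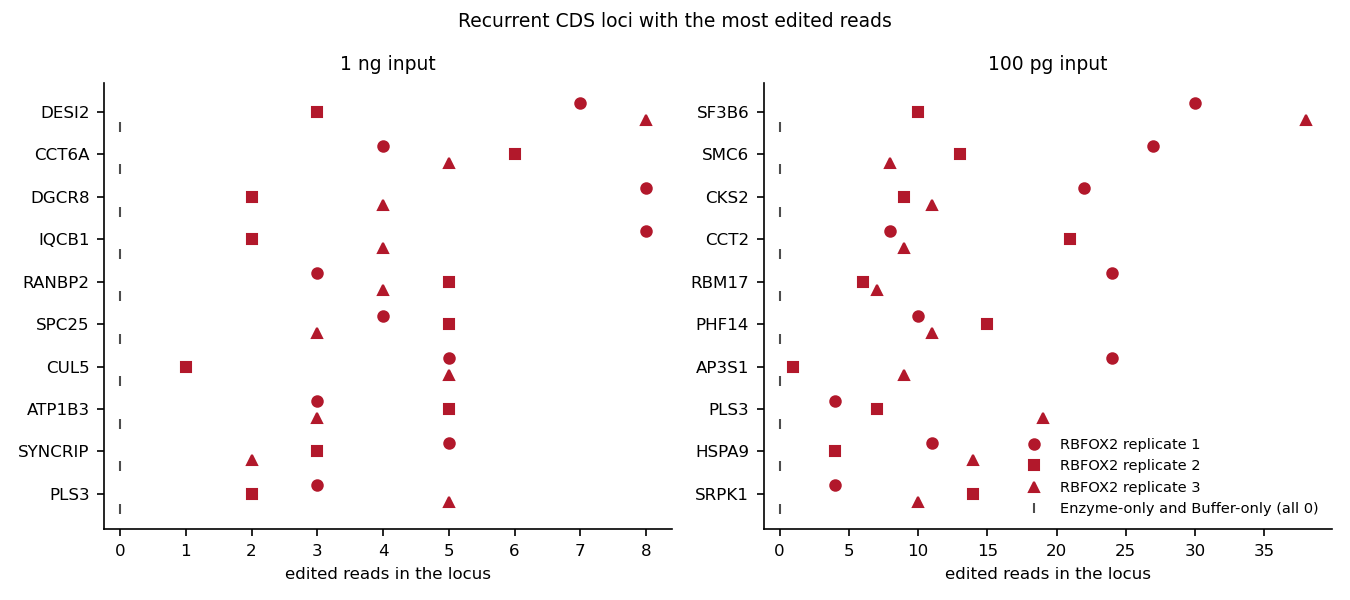
Edited reads per RBFOX2 replicate in the 10 recurrent CDS loci with the most edited reads at each input. Enzyme-only and Buffer-only libraries are at 0 by the rule that chose the loci, and the 2 axes differ in scale: totals run up to 18 edited reads at 1 ng and 78 at 100 pg.

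Per gene, few CDS counts could be tested, and few differed. Most genes with CDS clusters had 1 in a library, 63.3 to 65.9% of them in RBFOX2, 64.8% in Enzyme-only and 76.6 to 77.0% in Buffer-only at 1 ng. edgeR's quasi-likelihood test on the number of clusters per gene and region, with Benjamini-Hochberg adjustment over all 640 features tested at 1 ng, called 1 of 83 CDS features higher in RBFOX2 (3.12% of all features tested were called higher) and 4 lower (1.09% of all features). Folds in this test are relative to the library's total, which was larger in RBFOX2, and the median log2 fold change was −0.69 over the 83 CDS features and 0.22 over all 640. The low-count filter asked for 5 clusters in an RBFOX2 library and for 2 in a Buffer-only library, so of the 83 features 42 had passed in all 3 Buffer-only and 6 in all 3 RBFOX2 libraries. More of the tested CDS features thus entered through their Buffer-only counts than through their RBFOX2 counts, and the rest through libraries of both groups.

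RRM1, the large subunit of ribonucleotide reductase, which makes deoxynucleotides for DNA synthesis, was the 1 CDS feature called higher. It had 5, 5 and 5 CDS clusters in the RBFOX2 libraries, 1 in Enzyme-only and 0, 0 and 0 in Buffer-only. Against a floor of 3 clusters over the Buffer-only group, 15 clusters are at least 5-fold higher (edgeR log2 fold change 4.93, SE 1.24, adjusted p = 0.0494). Unlike the edgeR fold, this 5-fold was not scaled to the library totals, which were larger in RBFOX2, so it is no lower bound of a scaled fold. RRM1 passed the low-count filter through its RBFOX2 counts only, the group in which it is high, so it could enter the test only if it differed, and its fold and p are given as a description. The 15 clusters lay at 13 loci, of which 2 were shared by 2 or more RBFOX2 libraries.

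The 4 genes called lower passed the filter through their Buffer-only counts only, the group in which they are high, so their folds and p are a description too. HEXIM1, an inhibitor of the elongation kinase P-TEFb, had 1, 0 and 0 in RBFOX2, 0 in Enzyme-only and 3, 3 and 2 in Buffer-only (log2 fold change −3.54, SE 0.86). PSMD3, a proteasome subunit, had 0, 1 and 0 in RBFOX2, 3 in Enzyme-only and 2, 3 and 2 in Buffer-only (−3.35, SE 0.87). CHD4, the helicase of the NuRD complex, had 1, 1 and 3 in RBFOX2, 3 in Enzyme-only and 5, 6 and 3 in Buffer-only (−2.46, SE 0.60). PCNT, a centrosome scaffold, had 3, 1 and 1 in RBFOX2, 2 in Enzyme-only and 4, 5 and 4 in Buffer-only (−2.35, SE 0.59). All 4 had the same edgeR adjusted p of 0.0494 as RRM1, just inside the threshold of 0.05. The 5 calls depended on the fit: 0 CDS features passed in DESeq2 and 0 in edgeR without scaling. Before adjustment, DESeq2 had 2 CDS features higher and 8 lower with p under 0.05, and edgeR without scaling 2 higher and 23 lower. With RBFOX2 replicate 2 or any Buffer-only replicate left out 0 were called, and with RBFOX2 replicate 1 or 3 left out 1 and 2, all of them lower, so RRM1 was called in none of these fits. It was not called with replicate number as a block (0 CDS features higher and 3 lower) or on edit sites in place of clusters (0 higher and 5 lower) either.

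At 100 pg, edgeR called 0 of 18 CDS features in either direction. Of the 157 features of all regions, 1.91% passed as higher and 0.0% as lower. Before adjustment, 3 CDS features had p under 0.05, all higher in RBFOX2, and DESeq2 had 0 CDS features with or without adjustment. These entered the test through their RBFOX2 counts, the group in which they are high. PBRM1, a subunit of a chromatin remodelling complex, had 4, 4 and 4 clusters in RBFOX2, 0 in Enzyme-only and 1, 0 and 1 in Buffer-only (edgeR log2 fold change 2.02, SE 0.59, adjusted p = 0.183). EPRS1, the glutamyl-prolyl-tRNA synthetase, had as many clusters with the enzyme alone: 6, 5 and 6 in RBFOX2, 6 in Enzyme-only and 0, 3 and 1 in Buffer-only (edgeR log2 fold change 1.61, SE 0.70, adjusted p = 0.316).

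Among the genes with the most CDS clusters in RBFOX2 at 1 ng, several overlapped between groups and none was called. ASPM, a spindle pole protein, had 12, 9 and 13 clusters in RBFOX2, 7 in Enzyme-only and 3, 4 and 4 in Buffer-only. They stood at 33 loci, 1 of which was shared between RBFOX2 libraries, and per length of CDS they came to 1.09 clusters per kb in RBFOX2 and 0.352 in Buffer-only (edgeR log2 fold change 0.53, SE 0.38, adjusted p = 0.569). PRKDC, the catalytic subunit of DNA-dependent protein kinase, had 7, 4 and 12 in RBFOX2, 9 in Enzyme-only and 4, 7 and 8 in Buffer-only, with overlap. POLR2B, the second-largest subunit of RNA polymerase II, had 4, 6 and 11 in RBFOX2, 4 in Enzyme-only and 1, 0 and 0 in Buffer-only. It did not pass the low-count filter and was not tested. RIF1, AKAP9, MYH10, NOL11 and NPEPPS had means of 5.33 to 6.33 clusters in RBFOX2 and 1.33 to 4 in Buffer-only, none of them called. They encode a regulator of DNA replication timing, a centrosome and Golgi scaffold, nonmuscle myosin IIB, a nucleolar protein of rRNA processing and an aminopeptidase.

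CUL5 had 5, 7 and 5 CDS clusters in RBFOX2 at 1 ng, 0 in Enzyme-only and 0, 0 and 1 in Buffer-only, that is 2.42 clusters per kb in RBFOX2 and 0.142 in Buffer-only (edgeR log2 fold change 2.73, SE 0.89, adjusted p = 0.0907). Of its 11 loci in RBFOX2, 4 were shared by 2 or more RBFOX2 libraries. CUL5 passed the low-count filter through its RBFOX2 counts only, the group in which it is high, so its fold and p are a description. It missed the threshold of 0.05.

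At 100 pg, DCUN1D5, which promotes the neddylation of cullins, had 3, 4 and 6 CDS clusters in RBFOX2 and 0 in Enzyme-only and in each Buffer-only library. Against a floor of 3 clusters over the Buffer-only group this is at least 4.33-fold higher, and with a CDS of 711 nt it had 6.09 clusters per kb in RBFOX2. PSMD14, the deubiquitinase of the proteasome lid, had 3, 3 and 5 in RBFOX2, 1 in Enzyme-only and 0, 0 and 0 in Buffer-only, at least 3.67-fold higher. Each had 2 recurrent loci. The DCUN1D5 locus at chr11:103083257-103083301 (minus strand) was edited at 1 C, chr11:103083277, in 9 of 165, 8 of 105 and 5 of 190 reads of the RBFOX2 libraries, a synonymous change. HDAC2, a histone deacetylase, had 6, 2 and 5 in RBFOX2, 0 in Enzyme-only and 1, 0 and 0 in Buffer-only. The folds of DCUN1D5 and PSMD14 were not scaled to the library totals. Both genes were named for their many RBFOX2 clusters, so the folds are a description. DCUN1D5, PSMD14 and HDAC2 did not reach the filter and were not tested. Nor was CDC27, a subunit of the anaphase-promoting complex, with 9, 2 and 3 in RBFOX2, 2 in Enzyme-only and 0, 2 and 0 in Buffer-only. EIF3E, a translation initiation factor, had 4, 3 and 5 in RBFOX2, 2 in Enzyme-only and 3, 0 and 0 in Buffer-only (edgeR adjusted p = 0.462). BPTF, a chromatin remodelling subunit (8, 2 and 2 in RBFOX2, 6 in Enzyme-only, 3, 1 and 6 in Buffer-only) and MKI67 (3, 6 and 2 in RBFOX2, 4 in Enzyme-only, 5, 6 and 2 in Buffer-only), the proliferation marker Ki-67, overlapped between groups.

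Gene lists were counted to see which functions the coding clusters touched. Each list is set against all CDS clusters, which were 1.80 times as many in RBFOX2 as in Buffer-only at 1 ng and 1.33 times at 100 pg. Chaperone genes had 27 to 42 clusters in RBFOX2 at 1 ng, 35 in Enzyme-only and 9 to 19 in Buffer-only (ratio of the RBFOX2 to the Buffer-only mean 2.82). From 100 pg they had 44 to 45 in RBFOX2, 40 in Enzyme-only and 13 to 19 in Buffer-only (2.71). Among them, HSPA4 had 3, 5 and 4 in RBFOX2 at 1 ng, 2 in Enzyme-only and 0, 0 and 0 in Buffer-only, and DNAJA1 had 0, 4 and 6, 3, and 0, 0 and 0 in the same order. No member of the list passed the low-count filter. Cell division genes had 80 to 87 clusters in RBFOX2 at 1 ng, 77 in Enzyme-only and 39 to 44 in Buffer-only (2.02), with 36 of 37 genes hit, 6 tested and 0 called.

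Nuclear transport genes, importins, exportins and nucleoporins, had 35 to 44 clusters in RBFOX2 at 1 ng, 32 in Enzyme-only and 12 to 17 in Buffer-only (2.84). From 100 pg they had 12 to 20 in RBFOX2, 9 in Enzyme-only and 9 to 15 in Buffer-only (1.44). XPO1, the main exporter of proteins, had 7, 0 and 8 in RBFOX2, 4 in Enzyme-only and 0, 0 and 3 in Buffer-only at 1 ng. Chromatin regulators were highest in Enzyme-only at 1 ng, with 52 to 68 clusters in RBFOX2, 88 in Enzyme-only and 45 to 50 in Buffer-only (1.30), and held 1 of the lower calls, CHD4. Splicing and other RNA-binding proteins had 46 to 67 in RBFOX2, 61 in Enzyme-only and 32 to 41 in Buffer-only at 1 ng, and 0 of 2 tested members were called. Cytoskeleton and motor genes had 30 to 39 in RBFOX2, 30 in Enzyme-only and 14 to 22 in Buffer-only, and translation factors 27 to 37, 33 and 17 to 20, with 0 calls. Glycolysis genes had 3 to 8 in RBFOX2, 12 in Enzyme-only and 4 to 6 in Buffer-only. Of 8 genes that the study names, chosen with its findings known, there were 10 to 15 clusters in RBFOX2, 8 in Enzyme-only and 3 to 6 in Buffer-only at 1 ng, with 1 tested and 0 called. From 100 pg they had 4 to 6 in RBFOX2, 9 in Enzyme-only and 2 to 7 in Buffer-only, and the groups overlapped.

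Few ribosomal protein genes had CDS clusters at 1 ng, 6 of the 73 listed, with 3 to 7 clusters in RBFOX2, 3 in Enzyme-only and 1 to 2 in Buffer-only. At 100 pg 21 of 73 had any, with 4 to 11 clusters in RBFOX2, 3 in Enzyme-only and 1 to 6 in Buffer-only. Markers of other cell types were at or near 0. Blood and fibroblast markers had 0 clusters at 1 ng, neuron and muscle markers 0 to 1 per library. Of 7 epithelial and HEK293 markers, such as KRT8, KRT18 and VIM, 4 had clusters, 1 to 3 in RBFOX2, 4 in Enzyme-only and 0 to 3 in Buffer-only. A cluster count needs both reads and edits, so it is not a level of expression.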

How the data were processed

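C-to-U edits were measured in 14 RNA libraries of methanol-fixed HEK293T cells, 7 per input. According to the labels and the methods of the study, the authors trimmed reads with cutadapt, removed repeats and aligned to hg38 with STAR 2.4.0. They called edit sites with SAILOR, removed known SNPs, and deposited per site a score and its coverage with the edited-read counts, keeping scores above 0.5 and edit fractions under 0.8. Clusters were then called per library by the authors with FLARE (FDR 0.1, merging within 15 nt). For each cluster the deposited files hold the FLARE score, counts of edited and target bases and reads, the edit fraction, and read coverage as mean depth. The deposited confident lists hold a mean coverage signal and are pooled over 3 replicates. These lists were used only for overlap, and the Buffer-only and unsubtracted lists were not used.

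From these files, each cluster was given a region by its midpoint with Gencode 44 (the authors used an earlier release), taking 3′UTR before 5′UTR, CDS, noncoding exon and intron. Only protein-coding transcripts gave CDS and UTRs. Motifs were searched on the strand of the cluster in hg38, codons in the Ensembl canonical transcript or the longest CDS, with Python 3.11.15, pysam 0.24.0, numpy 2.4.6, pandas 2.3.3 and scipy 1.17.1. Per-library values were compared by the exact permutation test. Cluster counts per gene and region were tested with edgeR 4.0.16 in R 4.3.3 (TMM, filterByExpr with a minimum count of 3 and a total of 5, Benjamini-Hochberg at 0.05), with DESeq2 1.42.0 as an alternative. These steps were tested on simulated data. Figures were drawn with matplotlib 3.10.9. The strand comparison had been planned on clusters and was made on edit sites, because clusters exist on annotated strands only. Enzyme-only intervals are Wilson 95% intervals.

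Named genes were, per input, the CDS calls, the 10 genes with most RBFOX2 clusters (1 per input is not reported here), the 10 recurrent loci with most edited reads, all recurrent loci with UGCAUG or in both inputs, and up to 4 examples per gene list. NBPF15, NUDCD1 and the recurrent loci of DCUN1D5, PSMD14 and AP3S1 at 1 ng were singled out after their values were seen. The members and gene lists were chosen with earlier results of these data known. Subsets by 45-nt length, by GC content, by UTRs of any transcript, and site filters on score and coverage were chosen after seeing the data.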

Additional observations from a re-analysis of the deposited data

How the results depend on the processing

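Under other settings 176 recomputed values kept their direction (for counts, stayed within 1.5 times), 12 moved and 10 turned round, and with 1 library left out 158 kept it, 12 moved and 4 turned round. No 3 against 3 comparison can pass 0.05, so this says nothing of its call. Of 123 settings of results whose groups did not overlap, 9 overlapped: UGCAUG at 100 pg, GCACG in both inputs, the CDS minus 3′UTR gap at 1 ng and stop edits in both inputs with 2 or more sites, stop edits at 100 pg with a high FLARE score, and GCACG in both inputs within the GC band. Values that moved or turned round are given here, differences as RBFOX2 minus Buffer-only, and the cause was not tested. With a FLARE score of at least 0.99 the CDS share at 100 pg turned to 1.76 points, cluster depth at 1 ng to 14.3 reads, codon position 3 at 100 pg to 0.340 points, and position along the CDS to 0.0243 at 1 ng and 0.00350 at 100 pg. Recurrent CDS loci at 1 ng fell to 9, and CDS calls were 0 at 1 ng and 1 at 100 pg. With 2 or more sites, codon position 3 at 100 pg turned to 0.663 points and position to 0.0240, and recurrent loci were 3 at 1 ng and 0 at 100 pg. Without any UTR overlap, codon position 3 at 1 ng turned to 0.359 points and position to 0.00748 at 1 ng and 0.00397 at 100 pg, and recurrent loci were 27 and 17. Leaving out 1 library gave codon position 3 between −1.05 and 0.335 points at 1 ng, position along the CDS between −0.00541 and 0.00159 at 1 ng and between −0.00766 and 0.00144 at 100 pg, 267 to 302 recurrent loci at 1 ng, 111 to 127 at 100 pg, and 0 to 2 CDS calls at 1 ng. Without any 1 Buffer-only library the CDS calls were 0. The recurrent counts could only rise when an RBFOX2 library was left out, since the rule then asked for fewer libraries.

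CDS calls at 1 ng, 5 as reported, were 0 without scaling, 0 with DESeq2 and 2 without the filter (2 higher, 0 lower, against 1 and 4). At 100 pg, 1 was called on edit sites. The default filter with a minimum count of 10 left 21 and 5 features and no CDS feature, so it gave no value. With replicate number as a block, CDS calls at 1 ng were 3 (0 higher, 3 lower), and on edit sites 5 (0 higher, 5 lower), so RRM1 lost its call in both. Same-numbered RBFOX2 and Buffer-only libraries correlated at −0.00703 to 0.111 in their deviations, so the numbers were not taken to pair the samples. Paired by number, the UGCAUG difference at 1 ng was 1.30 points, and that exact sign-flip test cannot go below p = 0.25.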
